A study of Arabidopsis thaliana with 2 samples.

Results

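The genes described here are those that Arabidopsis thaliana carries in its mitochondrial genome. They were chosen by symbol. A probe set, the group of short oligonucleotides that reports 1 transcript on an Affymetrix array, belonged to the set if GEO's platform annotation gave it a single symbol beginning nad, cox, cob, ccb, ccm or orf, or the symbol atp1, atp4, atp6, atp8, atp9 or matR. Of 16541 probe sets, 18 met the rule, and they name 14 of the 9063 genes that a probe set names alone. Of these probe sets, 17 name 13 genes of respiration or of cytochrome c maturation, and 1 names an open reading frame, orfX. The rule uses no measured value, although it was drawn up with earlier results of these data known.

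Steady-state RNA of rosette leaves was compared between wild-type plants of ecotype Columbia and KO-HsfA1d/A1e, a double knockout of the heat shock factor genes HsfA1d and HsfA1e, with 1 array per genotype, each labelled as biological replicate 1. Both groups grew on MS medium under 100 µE m-2 s-1 in a cycle of 16 h light at 25°C and 8 h dark at 22°C. At the age of 2 weeks, both received 400 µE m-2 s-1 at 25°C for 30 min before harvest, and no unstressed array was analysed here. The sources used here do not give how the mutant alleles were made or how many plants were pooled. A single array per genotype gives no replicate error and allows no test, so every value below describes these 2 arrays.

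The mitochondrial genome of plants encodes only a small share of the respiratory chain. It holds core subunits of NADH dehydrogenase (complex I), apocytochrome b of complex III, the catalytic subunits of cytochrome c oxidase (complex IV), some subunits of ATP synthase, and proteins that attach heme to cytochrome c, while the nucleus encodes the other subunits. Several plant mitochondrial transcripts, among them those of nad1, nad2 and nad5, are assembled by trans-splicing of separately transcribed pieces. Their RNAs mostly lack stable poly(A) tails, and in plant mitochondria a short poly(A) tail marks RNA for decay.

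None of the mitochondrion-encoded probe sets differed between the genotypes by 2-fold. Their differences, as log2(intensity + 16) of the mutant minus that of the wild type, ran from -0.50 to 0.51 with a median of 0.08, against 0.03 over all 16541 probe sets. Of the 18, 10 had the higher value in the mutant and 8 the lower, and 54.4% of all probe sets had the higher value in the mutant. After quantile normalization the split was 11 and 7, since cox1, at nearly equal values, took the other sign. On this scale both ends of the range belong to nad1, which 4 probe sets report, although nad6 lay lowest after quantile normalization (-0.49, against -0.48 for the lowest nad1 probe set), after loess (-0.53 against -0.52) and with a pseudocount of 1 (-0.68 against -0.58). At 2-fold in either direction, 0 of 18 members stood against 3.05% of all probe sets, a share at which under 1 of 18 would be past that size, so a count of 0 says nothing particular about the members.

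All of the members were dim. The expression filter, set at the median mean log2 value of 8.44, or an intensity of 332, passed 0 of 18. Member intensities lay between 23.3 and 234.7 in wild-type leaves and between 20.6 and 181.7 in mutant leaves, where the medians over all probe sets were 334.1 and 331.9. On both arrays, 15 of the 18 lay in the lowest 25% of probe sets, and 5 were in the lowest 5% on at least 1 array. Without detection calls in the files, weak signal and background cannot be told apart. Labelling started from 100 ng of total RNA by the 3'IVT Express procedure, which primes on poly(A), and the part that this plays in the low values was not tested. In leaf tissue, fewer mitochondria, fewer cells that hold many of them and less RNA per mitochondrion cannot be told apart. An intensity also depends on the probes themselves, so the intensities below compare genotypes within a probe set and do not rank transcripts.

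**Figure D1:**
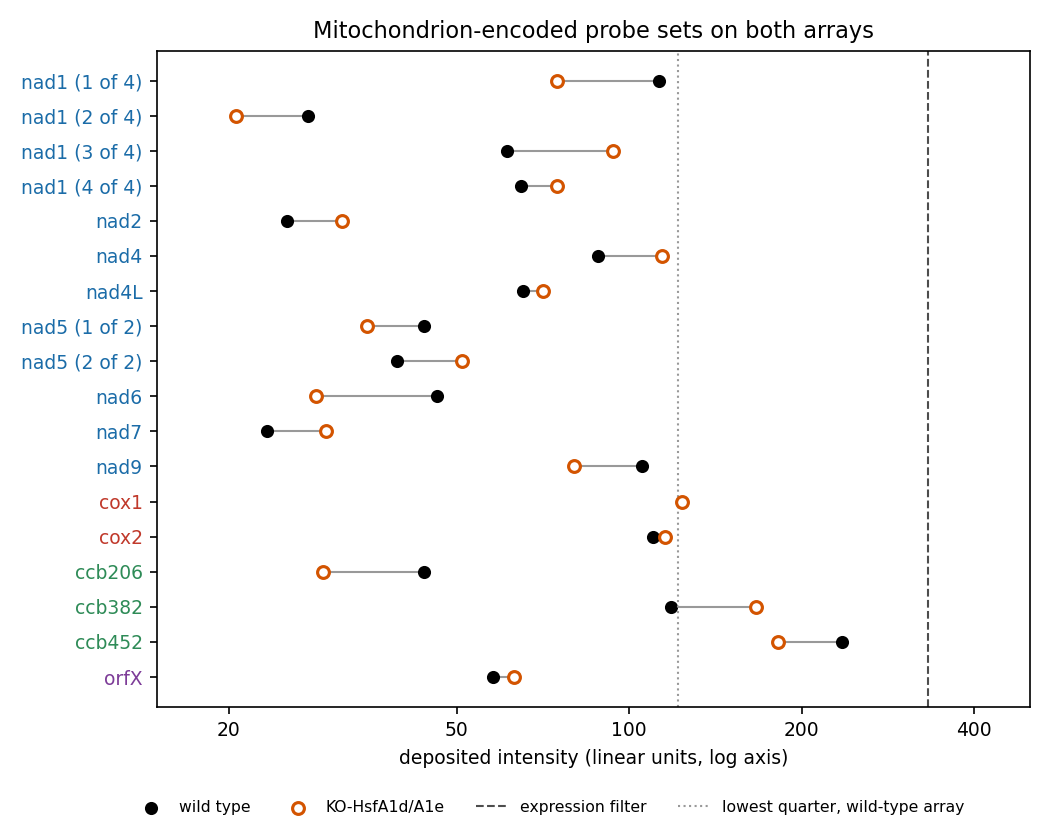
Deposited intensity (log axis, linear units) of each of the 18 mitochondrion-encoded probe sets on the wild-type array (filled circles) and the KO-HsfA1d/A1e array (open circles), 1 array each. Symbols are coloured by class (complex I blue, complex IV red, cytochrome c maturation green, orfX purple), and every point lies left of the dashed expression filter at 332.

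Complex I, the NADH dehydrogenase that passes electrons to ubiquinone and pumps protons, was covered by 12 probe sets for 8 genes. Of these, 7 had the higher value in the mutant and 5 the lower, with a median difference of 0.13 log2 units. The nad1 product is a membrane-arm subunit near the ubiquinone site. Its 4 probe sets did not share a direction. Probe set 257322_at read 112.6 in wild-type and 74.9 in mutant leaves (-0.50), the lowest difference of all 18 with 16 added. With 61.2 against 93.8 (0.51), 257324_at had the highest. Between them, 257323_at had 27.5 against 20.6 (-0.25) and 257325_at had 64.8 against 74.8 (0.17). The mean of the 4 was -0.02 with an SD of 0.45 log2 units across probe sets. Where each of these probe sets lies in the trans-spliced transcript is not stated in the sources at hand.

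For nad5, a proton-pumping membrane subunit, a pair of probe sets likewise took opposite signs. The first, 257337_at, read 43.8 for the wild type and 34.9 for the mutant (-0.23). The other, 257338_s_at, whose suffix marks probes that can match more than 1 sequence, had 39.4 against 51.1 (0.28). Their mean was 0.02 log2 units.

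The other proton-pumping membrane subunits, nad2 and nad4, both had the higher value in the mutant. The nad2 probe set read 25.3 for the wild type and 31.6 for the mutant (0.20). For nad4 the values were 88.4 and 114.2 (0.32), a ratio of 1.29 of the deposited intensities. The small membrane subunit nad4L had 65.1 against 70.9 (0.10), the smallest difference among the complex I genes with 1 probe set.

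The membrane subunit nad6 went the other way, with 46.1 for the wild type and 28.4 for the mutant (-0.48). Its ratio, wild type over mutant, was 1.62, the largest of the 18 members in either direction. The mutant value lies in the lowest 5% of that array, at percentile 4.06, so the size of this difference depends on the added 16.

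The subunits of the matrix arm, nad7 and nad9, differed in sign. The nad7 probe set read 23.3 for the wild type and 29.6 for the mutant (0.21), both in the lowest 5% of their arrays. For nad9 the values were 105.5 and 80.0 (-0.34). Thus neither the membrane arm nor the matrix arm of complex I had 1 direction on these arrays.

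Complex IV, which passes electrons from cytochrome c to oxygen, was covered by 2 genes whose values differed little. The catalytic subunit cox1, which holds the heme and copper site where oxygen is reduced, had intensities of 123.8 in wild-type and 123.7 in mutant leaves (0.00). Subunit cox2, which takes up electrons from cytochrome c, had 110.1 against 115.7 (0.06). No probe set named cox3 alone, and for complex I none named nad3 alone.

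Cytochrome c maturation was represented by 3 genes whose platform symbols carry an older name. The current RefSeq gene table lists ccb206 as ccmB, ccb382 as ccmFN1 and ccb452 as ccmFC. In plants, ccmB is part of a transporter of the heme attachment pathway, and ccmFN1 and ccmFC belong to the complex that joins heme to apocytochrome c. For ccb206, the intensity was 43.9 in wild-type and 29.2 in mutant leaves (-0.41), the mutant value again in the lowest 5% of its array. The ccb382 probe set had 118.4 against 166.8 (0.44), a ratio of 1.41. In contrast, ccb452 had 234.7 against 181.7 (-0.34). The genes of the heme-joining complex thus lay on opposite sides of 0, 0.79 log2 units apart.

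Among open reading frames, orfX was the only 1 with a single symbol. RefSeq lists it as mttB, with the alias tatC, a membrane protein related to the TatC component of twin-arginine protein transport. Its intensity was 57.9 in wild-type and 63.0 in mutant leaves (0.10), close to the median of 0.06 over the named respiratory probe sets. This probe set also carries the suffix of probes that can match several sequences.

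**Figure D2:**
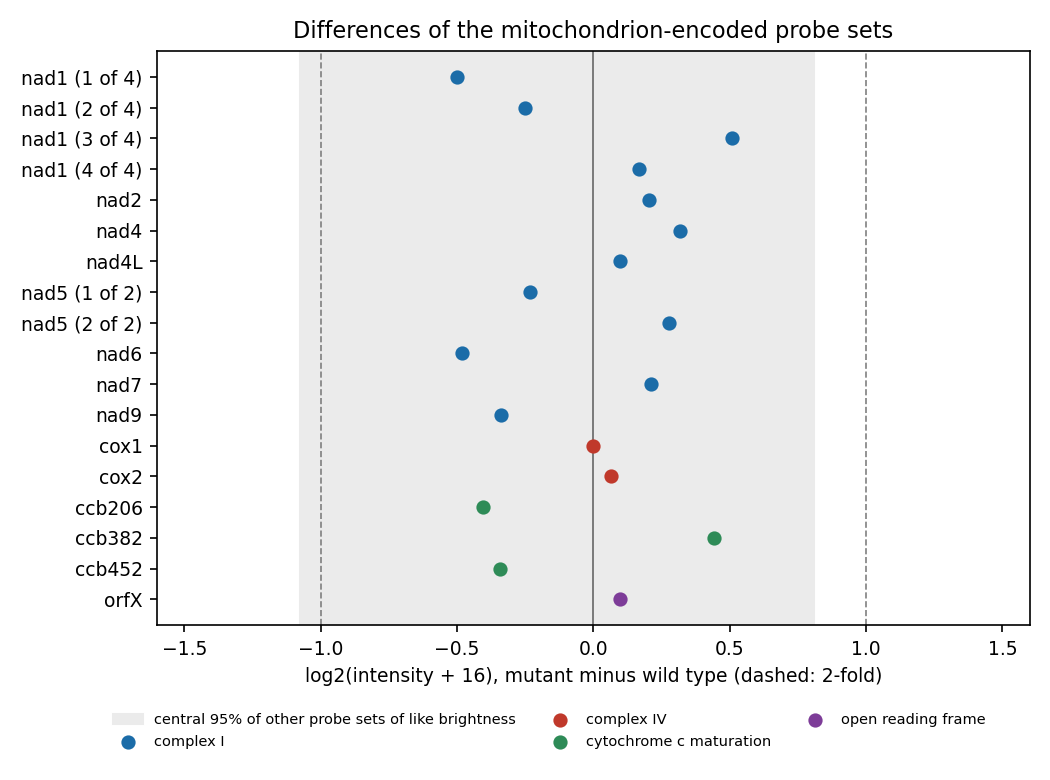
Mutant minus wild-type difference in log2(intensity + 16) for each member, coloured by class, with dashed lines at 2-fold. The grey band spans the central 95% of the differences of 5670 other probe sets in the same range of mean log2 value (-1.08 to 0.81), and all 18 members lie inside it.

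How far dim probe sets scatter on these arrays was read from the rest of the table. In the members' range of mean log2 value, 5.32 to 7.80, there were 5670 other probe sets. Their differences had a median of 0.01 and an SD of 0.48 log2 units, and the central 95% lay between -1.08 and 0.81. The 18 members had an SD of 0.32, and all 18 lay inside that central range. With 16 added, 4.09% of the 5670 were past 2-fold and 15.1% past 1.5-fold in either direction. Of the members, 0 were past either size on that scale. As ratios of the deposited intensities, nad6 (1.62, lower in the mutant) and nad1 probe set 257324_at (1.53, higher) were past 1.5-fold. So, barely, were nad1 probe set 257322_at and ccb206, both lower in the mutant. The share of the 5670 past 1.5-fold in deposited ratio was not counted, so these members have no share to be set beside. The nearest count made adds 1 in place of 16, a setting chosen after seeing the data. There, 2 of the 18 members and 2165 of all 16541 probe sets were past 1.5-fold. Across the 18 members, the log2 values of the arrays correlated with Pearson's r = 0.90, against r = 0.78 across the 5670, a description over probe sets that share the same arrays and probe brightness.

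Repeated probe sets of a gene give another measure of scatter. The spread over other dim probe sets also holds any effect of genotype, and neither spread is a replicate error. In 29 other genes whose singly named probe sets were all under the filter, the differences scattered around the gene's mean with a pooled SD of 0.39 log2 units, and in 11 of the 29 the probe sets took opposite signs. For nad1 and nad5 together the pooled SD was 0.43. The latter value comes from members themselves. Past 0.39 in size were nad1 (257322_at at -0.50 and 257324_at at 0.51), nad6 (-0.48), ccb382 (0.44) and ccb206 (-0.41), and the other members' differences were smaller. A size of 0.39 is 1 pooled SD and no bound on scatter, and the share of other probe sets past it was not counted. Of the 18 members, 15 lay within 1 SD (0.48) of the median of the 5670 other probe sets of like brightness. Whether any member's difference exceeds scatter was not tested. The scatter between probe sets of a gene leaves out the spread between plants and between RNA preparations.

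**Figure D3:**
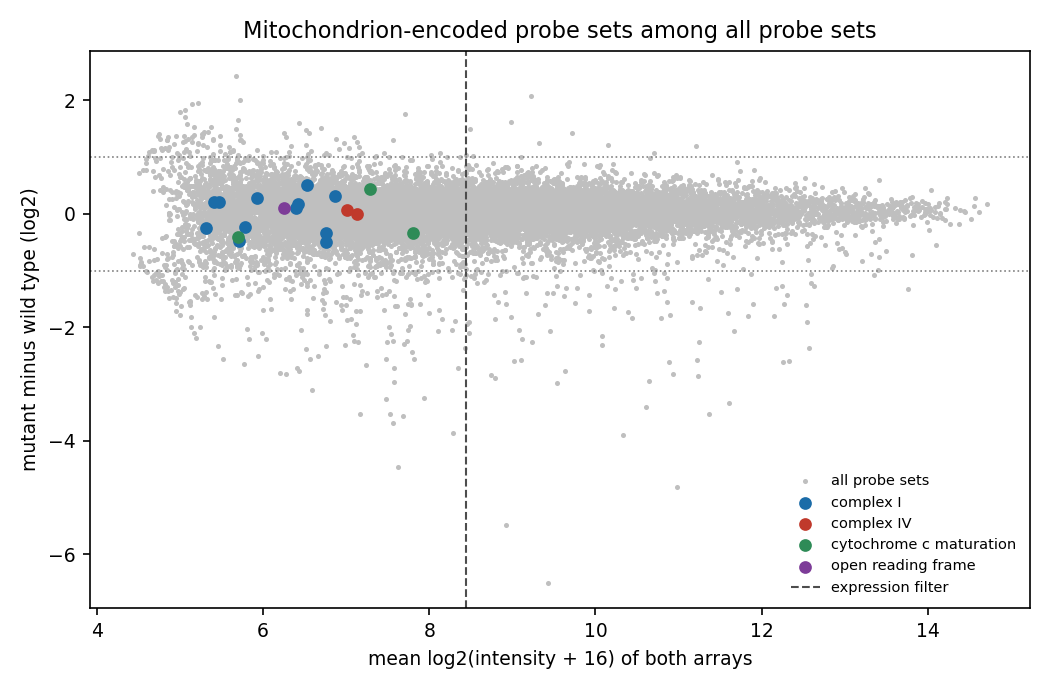
Difference (mutant minus wild type, log2) against the mean log2(intensity + 16) of both arrays for all 16541 probe sets (grey), with the 18 members coloured by class. All members lie left of the dashed expression filter at 8.44 and between the dotted lines at 2-fold.

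The rule leaves part of the mitochondrial genome unread. The RefSeq gene table, of assembly TAIR10.1, holds 33 mitochondrial protein-coding entries under 32 symbols. All 14 member genes matched it by symbol or synonym. No probe set named cob, matR, atp1, atp4, atp6, atp8 or atp9 alone. Other mitochondrial open reading frames may be among the 7062 probe sets with no symbol, which the rule does not read. A further 10 probe sets pair a mitochondrial symbol with a locus of chromosome 2, where Arabidopsis carries a copy of mitochondrial DNA, and 5 of the 10 hold a symbol of the rule. Their signal cannot be assigned to either genome, so no gene is named from them. The 9 of them under the filter had differences from -0.38 to 0.09, none past 1.5-fold. The remaining 1, which holds a symbol of the rule, passed it with 1038 in wild-type and 658.7 in mutant leaves (-0.64).

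The plastid genome is the other organelle genome on the array. Its 62 singly named probe sets had a median difference of 0.05, beside 0.08 for the mitochondrial members. In the members' range of mean log2 value, 27 plastid probe sets had a median of 0.01 and ran from -0.45 to 1.40. Of the 27, 1 was at least 2-fold higher in the mutant, beside 62 of all 5670 non-member probe sets in that range. Of all 62 plastid probe sets, 2 were at least 2-fold higher, beside 127 of all 16541. None was that much lower, beside 377 of all 16541. Past the filter were 25 of 62 plastid probe sets and 0 of 18 mitochondrial ones.

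Subunits of the same complexes that the nucleus encodes were read from a list of 64 loci. For every list, a locus counts as measured if a probe set named it alone. The others may have probe sets without a single symbol. Of the 64 loci, 30 were measured and 29 passed the filter. Their median difference was -0.01, from -2.95 to 0.50. Of the 29, 1 was lower in the mutant by 2-fold or more and 0 were higher, beside 1.38% lower among all probe sets past the filter. That gene, AT5G25450, encodes the 14 kDa-type subunit of complex III, and read 4455 in wild-type and 561.7 in mutant leaves (-2.95). AT4G32470, which encodes the closely related form of that subunit, read 3075 and 4358 (0.50) and was picked with its value known.

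The other nuclear genes lay within 2-fold. In complex I, AT3G03070 read 4644 in wild-type and 4908 in mutant leaves (0.08) and AT2G20360 had 1900 against 2059 (0.12). The 6 nuclear complex I genes measured ran from -0.18 to 0.12. The 12 mitochondrial probe sets, all far dimmer, spread over 1.01 log2 units. Over all probe sets, differences had an SD of 0.48 under the filter and 0.35 past it. In complex II, which has no member here, SDH2-1, an iron-sulfur subunit, had 1736 against 1621 (-0.10), and the dim SDH1-2, a flavoprotein subunit, had 36.9 against 18.6 (-0.61). In complex III, MPPBETA had 4936 against 4890 (-0.01) and AT3G27240, a cytochrome c1 gene, had 1487 against 1600 (0.10). In complex IV, AT4G37830 had 8170 against 9515 (0.22) and AT5G61310 had 1042 against 1059 (0.02), beside 0.00 and 0.06 for cox1 and cox2. Of the ATP synthase genes, AT5G47030 had 4376 against 4381 (0.00) and AT1G51650 had 3050 against 2853 (-0.10).

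Cytochrome c itself is a protein that ccb206, ccb382 and ccb452 serve. CYTC-1 read 7075 in wild-type and 7028 in mutant leaves (-0.01), and CYTC-2 had 5150 against 3005 (-0.77). Of the enzymes of the alternative pathways, NDC1, a rotenone-insensitive NAD(P)H dehydrogenase, had 762.1 against 719.6 (-0.08) and NDB1, of the same family, had 454.2 against 500.1 (0.13). In the list of 8 nuclear genes for mitochondrial transcription and RNA processing, 4 were measured, all under the filter, with differences from -0.01 to 0.23. The last value belongs to AT5G14580, the mitochondrial polynucleotide phosphorylase that trims and degrades mitochondrial RNA, with 68.9 against 83.4, picked with its value known.

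**Figure D4:**
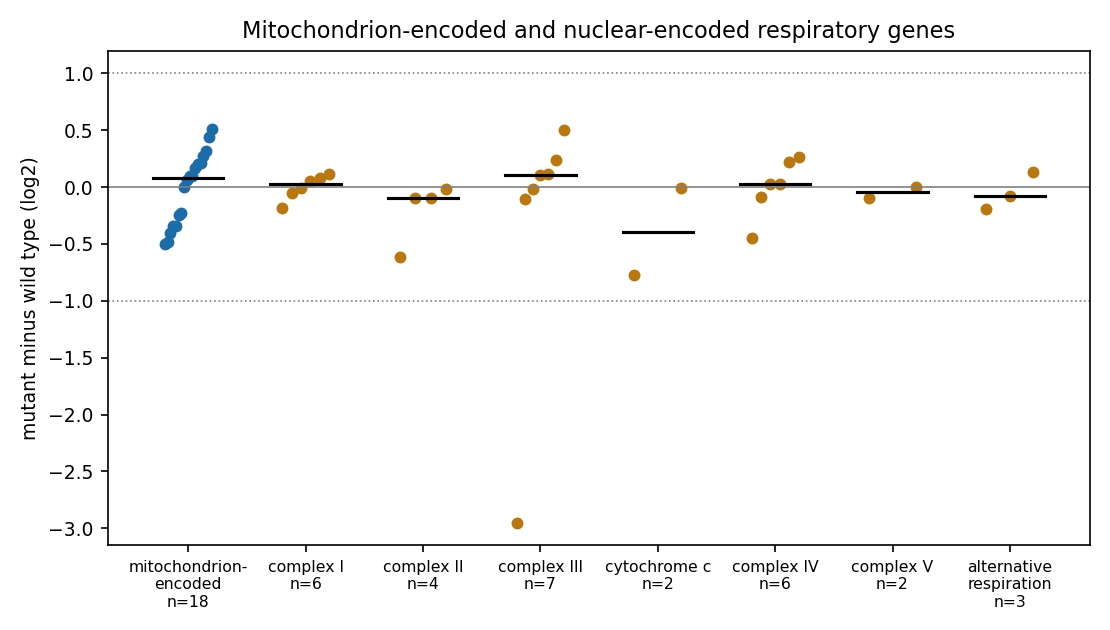
Difference (mutant minus wild type, log2) of the 18 mitochondrion-encoded probe sets (blue) and of 30 nuclear respiratory genes by complex (brown), with black bars at the medians and dotted lines at 2-fold. The members spread evenly around 0, and the point at -2.95 is AT5G25450.

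Of the arrays as a whole, neither HsfA1d nor HsfA1e had a singly named probe set, so the genotype labels could not be checked. Leaf markers were bright, with 3 of 10 measured and intensities between 11574 and 22929 in wild-type leaves and between 11304 and 25125 in mutant leaves. The root marker PYK10, the only 1 of 3 measured, read 2555 in wild-type and 3758 in mutant leaves (0.55), and its part in the members' values was not tested. No probe set named either of the 2 seed markers alone.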

How the data were processed

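Per probe set and array, the authors deposited 1 linear intensity. How probes were summarized, corrected for background and scaled is not given in the sources used here. Biotinylated cRNA was made from 100 ng of total RNA, per the labels' protocols. Symbols came from GEO's platform annotation (9139 probe sets with 1 symbol, 340 with several, 7062 with none). Intensities were taken as deposited, as log2(intensity + 16), which understates differences of dim probe sets. The filter kept probe sets at or above the median mean log2 value. With 1 array per genotype no test was run, and the number of arrays limits precision. Differences were counted at 2-fold as a fixed rule of size.

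The rule for the members uses symbols only, but it, the lists and the comparisons were chosen with earlier results of these data known. Every member is named. Other genes named are the brightest and dimmest measured gene of each nuclear complex, those of the nuclear list past 2-fold, and those marked in the text. Alternatives were median centring, quantile normalization, loess (span 0.3), pseudocounts of 1 and 64, other filters and thresholds, leaving out _s_at and _x_at probe sets, and, chosen after seeing the data, averaging the probe sets of a gene and joint changes of filter, pseudocount and threshold. The procedure was tested on simulated data, with less noise than dim probe sets have here and planted changes larger than any member's difference. That test does not show how changes as small as the members' are read in dim probe sets. Python 3.11.15, numpy 2.4.6, pandas 2.3.3 and statsmodels 0.14.6 were used.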

Additional observations from a re-analysis of the deposited data

How the results depend on the processing

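No paired analysis was possible because there is 1 array per genotype, which also leaves no replicate to drop. The median of the named respiratory probe sets was 0.06 log2 units, and under the 7 alternatives it ran from 0.02, with the probe sets of a gene averaged, to 0.09, after quantile normalization. For orfX it ran from 0.06 to 0.12. No value was possible for members past the filter, which passed none, or for orfX without _s_at probe sets. Only cox1 took another sign, and only after quantile normalization. With the filter, a count of members could only be 0, since it passes none of them. Over all 18 members, 0 were at 2-fold as reported and under each of the 3 scalings and both other pseudocounts. At 1.5-fold with no filter and a pseudocount of 1, chosen after seeing the data, 2 were counted, nad6 at -0.68 and a nad1 probe set at 0.61. That setting counted 2165 of all 16541 probe sets, a slightly larger share, so the count of 2 says nothing particular about the members. The array-wide count of 124 at 2-fold became 504 with no filter, 68 with the filter at percentile 75, 405 at 1.5-fold and 53 at 3-fold. With no filter it was 1632 at 1.5-fold, 833 with a pseudocount of 1, and 2165 with both, which alters the probe sets counted by construction. Unknown background limits every member's value.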

Other observations

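In all, 6 nuclear loci are reported alone by probe sets and lie in the stretch of chromosome 2 spanned by the loci that share probe sets with mitochondrial genes. They were looked at after the data were seen. All 6 had the higher value in the mutant, by 0.22 to 0.99 log2 units with a median of 0.47, and all 6 were under the filter. The value was higher in the mutant for 54.4% of all probe sets, and for 2922 of the 5670 in the members' range of mean log2 value. AT2G07695 read 20.6 in wild-type and 56.6 in mutant leaves (0.99). Its wild-type value lies near the floor, at percentile 2.09 of that array, so the size of this difference depends on the added 16. AT2G07707 had 93.1 against 157.9 (0.67), AT2G07719 had 36.2 against 58.4 (0.51) and AT2G07708 had 33.2 against 49.8 (0.42). AT2G07722 (0.25) and AT2G07674 (0.22) differed least. With 16 added, all 6 lay within 2-fold, and with a pseudocount of 1 AT2G07695 did not (1.41). Whether their probes also match mitochondrial transcripts was not tested.

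Genes that neighbour each other in the mitochondrial genome were set side by side, leaving out nad1, nad2 and nad5, whose exons lie apart. Of 3 member pairs next to each other by start position among the remaining protein-coding genes of the RefSeq table, 1 shared a sign. Whether exons of the genes left out lie between them was not checked. The pair nad4 and orfX (mttB) had 0.32 and 0.10, while cox2 and ccb206 (ccmB) had 0.06 and -0.41, and ccb452 (ccmFC) and nad4 had -0.34 and 0.32.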
